A study of Mus musculus with 9 samples.

Results

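Trypsin digestion was compared with collagenase alone in mouse mammary cells. The comparison used 6 of the 9 arrays of the series, chosen by their titles: 3 of untrypsinized and 3 of trypsinized cells. All cells came from the mammary gland of wild-type C3H females aged 8 to 9 weeks, are labelled as epithelial, and had been freed from fat tissue with collagenase. The trypsinized cells were then also digested with trypsin. A mock sorted group of 3 arrays entered the statistical fit for its spread alone. Replicates are labelled as biological, but no label says which animals they came from. The p-values therefore measure the spread among these arrays and no more, and some of it may be technical.

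Collagenase cuts the collagen that holds gland tissue together and leaves clumps of ducts with attached nerves, vessels and stroma. Trypsin is a serine protease that cuts many proteins after lysine and arginine, and is used to turn such clumps into single cells. A mammary preparation can hold luminal cells that secrete milk, basal cells that contract, and cells of vessels, nerves, connective tissue, fat, muscle and lymph nodes.

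Levels are log2 of the array intensity plus 1, and a change is the mean of the trypsinized minus the mean of the untrypsinized arrays on that scale, with its standard error (SE, n = 3 arrays per group) and a limma p adjusted over all 19938 genes. Calling a gene higher or lower took a 1.5-fold change and an adjusted p no greater than 0.05. By that rule 1.46% of genes were called, 0.532% higher and 0.933% lower. At the adjusted p alone 25.4% passed, 13.9% higher and 11.5% lower. The median change over all genes was 0.04, and it was -0.09 to 0.00 when arrays were rescaled in 3 other ways. Setting arrays to a common median moved the calls from 106 higher and 186 lower to 55 and 376. Pairs of arrays had correlations of 0.9937 to 0.9966 within groups and of 0.9873 to 0.9932 across them. Olfactory receptor genes, which serve here as a reference for dim signal, had a mean level of 6.47 in untrypsinized and 6.57 in trypsinized arrays. Markers of the labelled epithelium were bright: the luminal keratin Krt8 lay between 13.84 and 13.94 in the 6 arrays and the basal keratin Krt14 between 12.77 and 12.83.

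Genes of myelinating Schwann cells, the glia that wrap peripheral axons, were lower after trypsin across several steps of myelin making. Of 17 measured members of that list, 9 were called lower and 0 higher, against 0.933% and 0.532% of all genes, and the list median was -0.60. Without untrypsinized replicate 3, 7 members were called lower. In bulk RNA, fewer cells of a type and less RNA per cell cannot be told apart.

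Gldn encodes gliomedin, which gathers sodium channels at the nodes between myelin segments. It stood at 8.35, 8.22 and 8.38 in untrypsinized replicates 1 to 3 and at 7.22, 7.30 and 7.29 in trypsinized replicates 1 to 3. The groups did not overlap, and Gldn fell by 1.04 (SE 0.05, adjusted p = 0.000196). Ugt8a and Fa2h make the galactosylceramides that fill myelin membranes. Ugt8a stood at 9.21, 8.88 and 9.29 in untrypsinized replicates 1 to 3 and at 8.11, 7.94 and 8.08 in trypsinized replicates 1 to 3, and fell by 1.08 (SE 0.10, adjusted p = 0.000528). Fa2h stood at 8.79, 8.44 and 8.68 in untrypsinized replicates 1 to 3 and at 7.95, 7.73 and 7.72 in trypsinized replicates 1 to 3, and fell by 0.84 (SE 0.10, adjusted p = 0.00126). Trypsinized replicate 1 was the highest trypsinized array for both genes and still lay below every untrypsinized array. Dhh, the desert hedgehog ligand that Schwann cells send to the nerve sheath, stood at 8.95, 8.93 and 8.98 in untrypsinized replicates 1 to 3 and at 8.24, 8.34 and 8.29 in trypsinized replicates 1 to 3, with the groups far apart relative to their spread, and fell by 0.66 (SE 0.05, adjusted p = 0.000259).

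Structural myelin genes were lower too. Pmp22, whose product is a membrane protein of compact myelin and which is also made by epithelia and fibroblasts, fell by 0.60 (SE 0.04, adjusted p = 0.000259) from a level above 13 in every untrypsinized array. Drp2, a dystrophin-related protein of the outer Schwann membrane, fell by 0.64 (SE 0.07, adjusted p = 0.000838). Pmp2, a lipid carrier of myelin, was called lower. Its mean of 6.44 in trypsinized arrays, against 7.21 in untrypsinized arrays, was below the olfactory receptor mean, and no fold is given. Mag, an adhesion protein between axon and myelin, was lower at the adjusted p but under the minimum fold, at -0.32 (adjusted p = 0.000857). Mbp and Gjc3 make up the 9. The call of Pmp22 was lost without untrypsinized replicate 3 (-0.57). The call of Drp2 was lost without untrypsinized replicate 3 (-0.58).

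The wider Schwann lineage list was mostly lower. Of 23 measured members 11 were lower and 4 higher at the adjusted p alone (11.5% and 13.9% of all genes), at a median of -0.20, and 5 were called lower: Cdh19, Gpm6a, Art3, Matn2 and Ncam1. Art3, an ADP-ribosyltransferase family member, stood at 9.10, 8.85 and 9.08 in untrypsinized replicates 1 to 3 and at 7.71, 7.94 and 7.91 in trypsinized replicates 1 to 3, and fell by 1.15 (SE 0.08, adjusted p = 0.000259). Matn2, a matrix protein laid down along nerves, stood at 9.82, 9.68 and 9.81 in untrypsinized replicates 1 to 3 and at 9.04, 9.03 and 9.05 in trypsinized replicates 1 to 3, and fell by 0.73 (SE 0.05, adjusted p = 0.000259). Ncam1, an adhesion molecule of the immunoglobulin family, fell by 0.64 (SE 0.08, adjusted p = 0.00132). In both Art3 and Matn2 the groups were separated by more than 0.6 log2 units. The 4 members higher at the adjusted p alone, 2 with a common median, were all under the minimum fold. They were Sox10 at 0.25, Ngfr at 0.30, Gfap at 0.31 and Erbb3 at 0.18, named after their values were seen. Sox10 and Erbb3 are also made by mammary epithelial cells. Rescaling left Sox10 between 0.12 and 0.26. The call of Ncam1 was lost without untrypsinized replicate 3 (-0.57).

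Axon genes were mostly not called. In the list of neurons and axons 1 of 17 measured members was called, Stmn2, a microtubule regulator of growing axons, which fell by 0.72 (SE 0.08, adjusted p = 0.00107). The list median was 0.04, equal to that of all genes, and its sign depended on scaling. Ret, the receptor for GDNF family ligands, fell by 0.67 (SE 0.06, adjusted p = 0.00051). The list of perineurial cells, which form the nerve sheath, was split. Of its 12 members 4 were higher and 3 lower at the adjusted p alone (13.9% and 11.5% of all genes), at a median of 0.0085. With a common median those counts were 0 and 5. In that list 2 members were called lower (0.933% of all genes), and 1 without untrypsinized replicate 3 or trypsinized replicate 2. One was Sfrp5, a secreted Wnt antagonist, at 9.57, 9.20 and 9.38 in untrypsinized replicates 1 to 3 and at 8.21, 7.93 and 8.12 in trypsinized replicates 1 to 3. Sfrp5 fell by 1.30 (SE 0.10, adjusted p = 0.000263), and its lowest untrypsinized array was about 1 log2 unit above its highest trypsinized array. The other was Abca8a, a lipid transporter, which fell by 0.60 (SE 0.11, adjusted p = 0.00798). The call of Abca8a was lost without untrypsinized replicate 3 (-0.48) and without trypsinized replicate 2 (-0.58).

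**Figure D1:**
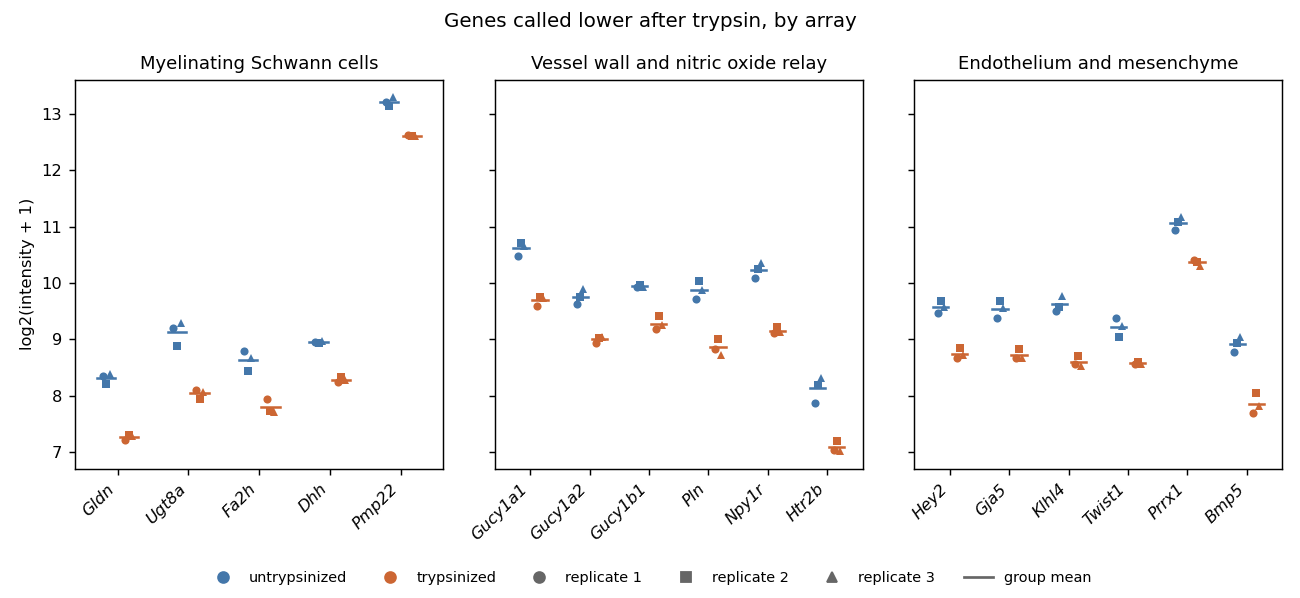
Level, as log2 of intensity plus 1, of genes called lower after trypsin, in each of the 3 untrypsinized (blue) and 3 trypsinized (orange) arrays. Symbols mark the replicate number and bars the group means. The groups do not overlap for any gene shown, and Gucy1a1, for example, fell by 0.92.

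Genes of the nitric oxide relay of the vessel wall were called lower. Nitric oxide from endothelium binds soluble guanylate cyclase in smooth muscle, a dimer of an alpha and a beta subunit that makes cyclic GMP and relaxes the vessel. This family, and those of cyclic nucleotide phosphodiesterases and of serotonin, neuropeptide Y, natriuretic peptide and MAS-related receptors, were chosen after their values were seen. Of the 4 cyclase subunits 3 were called lower, against 0.933% of all genes. They were the alpha subunits Gucy1a1 and Gucy1a2 and the beta subunit Gucy1b1. Gucy1a1 stood at 10.48, 10.70 and 10.66 in untrypsinized replicates 1 to 3 and at 9.59, 9.76 and 9.74 in trypsinized replicates 1 to 3, and fell by 0.92 (SE 0.07, adjusted p = 0.000259). Gucy1a2 stood at 9.63, 9.76 and 9.89 in untrypsinized replicates 1 to 3 and at 8.94, 9.03 and 9.05 in trypsinized replicates 1 to 3, and fell by 0.75 (SE 0.09, adjusted p = 0.0012). Gucy1b1 stood at 9.94, 9.97 and 9.94 in untrypsinized replicates 1 to 3 and at 9.18, 9.41 and 9.26 in trypsinized replicates 1 to 3, and fell by 0.67 (SE 0.07, adjusted p = 0.000993). In each of the 3 genes every trypsinized array lay below every untrypsinized array, and the 3 calls held without each array in turn. The other beta subunit, Gucy1b2, had a level of 7.09 to 7.48 in the 6 arrays and was not called (change 0.20, adjusted p = 0.0793).

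Genes that act beside the relay were also called lower. Npr1, the receptor for atrial natriuretic peptide, is a membrane guanylate cyclase, and fell by 0.60 (SE 0.08, adjusted p = 0.00184). Of 22 phosphodiesterase genes, whose products break cyclic nucleotides down, 2 were called lower (0.933% of all genes), and 4 with a common median. Pde1a, the calcium-regulated form, fell by 0.96 (SE 0.08, adjusted p = 0.000377), and Pde3a, the form that cyclic GMP inhibits, fell by 0.76 (SE 0.06, adjusted p = 0.000378). Pln encodes phospholamban, a brake on the calcium pump of smooth and heart muscle, and stood at 9.72, 10.04 and 9.88 in untrypsinized replicates 1 to 3 and at 8.84, 9.02 and 8.73 in trypsinized replicates 1 to 3. It fell by 1.02 (SE 0.10, adjusted p = 0.000595), and trypsinized replicate 2 was the highest trypsinized array. Myocd, the coactivator that drives smooth muscle genes with serum response factor, fell by 0.78 (SE 0.07, adjusted p = 0.000538). Casq2, a calcium store protein, fell by 0.61 (SE 0.07, adjusted p = 0.00114). Pln, Myocd and Casq2 belong to none of the lists and were chosen after their values were seen. The call of Npr1 was lost without untrypsinized replicate 3 (-0.51). The call of Casq2 was lost without untrypsinized replicate 3 (-0.54) and without trypsinized replicate 3 (-0.56).

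Several receptors of these added families, and the channel P2rx1, were called lower. Npy1r, the receptor for neuropeptide Y from sympathetic nerves, stood at 10.09, 10.26 and 10.35 in untrypsinized replicates 1 to 3 and at 9.11, 9.23 and 9.13 in trypsinized replicates 1 to 3. The gap between its groups was over 0.8 log2 units, and it fell by 1.07 (SE 0.07, adjusted p = 0.000205). P2rx1, the ATP-gated cation channel of arterial smooth muscle, stood at 10.36, 10.65 and 10.60 in untrypsinized replicates 1 to 3 and at 9.27, 9.46 and 9.25 in trypsinized replicates 1 to 3, and fell by 1.21 (SE 0.09, adjusted p = 0.000259). Of 14 serotonin receptors 2 were called lower, Htr2b and Htr2a, against 0.933% of all genes. Htr2b stood at 7.88, 8.20 and 8.32 in untrypsinized replicates 1 to 3 and at 7.05, 7.21 and 7.02 in trypsinized replicates 1 to 3, and fell by 1.04 (SE 0.15, adjusted p = 0.00256). Htr2a fell by 0.64 (SE 0.05, adjusted p = 0.000319). Of 19 MAS-related receptors 3 were called lower, against the same 0.933%. Mrgprh fell by 0.91 (SE 0.07, adjusted p = 0.000305), Mas1 fell by 0.86 (SE 0.11, adjusted p = 0.00149) and Mrgprf fell by 0.65 (SE 0.06, adjusted p = 0.000548). Mas1 encodes a receptor for an angiotensin fragment. Among regulators of G protein signalling, which are not receptors, Rgs16 fell by 0.67 (SE 0.08, adjusted p = 0.00115), beside Rgs4. Rgs1, of the same family, went the other way and was called higher, at 0.90 (adjusted p = 0.0231).

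The pericyte and vascular smooth muscle list itself had 2 of 14 members called lower, against 0.933% of all genes. At the adjusted p alone 11 were lower (11.5% of all genes), and the list median was -0.37. Kcnj8, a potassium channel pore that opens when ATP is low and is a marker of pericytes, fell by 0.61 (SE 0.07, adjusted p = 0.00147). Its partner subunit Abcc9 changed by -0.57, just under the minimum fold. Mcam was lower at the adjusted p, at -0.42. Without untrypsinized replicate 3 the list had 1 member called, and without untrypsinized replicate 1 it had 4. It had 4 with quantile normalization over all rows and 5 with a common median. Its changes ran from -0.68 to -0.10 and so overlapped those of the contractile genes that follow. The call of Kcnj8 was lost without untrypsinized replicate 3 (-0.57) and without trypsinized replicate 3 (-0.58).

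Contractile genes that vessels share with mammary basal cells changed by less than the minimum fold. Smooth muscle actin and myosin are made both by vessel walls and by the myoepithelial cells that squeeze milk out. Acta2, alpha smooth muscle actin, stood at 13.83, 13.81 and 13.79 in untrypsinized replicates 1 to 3 and at 13.76, 13.76 and 13.76 in trypsinized replicates 1 to 3, a change of -0.05 (SE 0.03, adjusted p = 0.224). Tagln, Myl9, Cald1 and Mylk were lower at the adjusted p alone, at -0.21, -0.29, -0.23 and -0.36. Cnn1, Myh11 and Actg2, also contractile proteins and named after their values were seen, changed by -0.18, -0.15 and -0.07. Of the 22 basal and myoepithelial genes 0 were called, while 9 were lower and 0 higher at the adjusted p alone (11.5% and 13.9% of all genes). Without untrypsinized replicate 1 or 2 or trypsinized replicate 1, 1 basal gene was called. With a common median 1 was called and 15 were lower at the adjusted p alone.

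**Figure D2:**
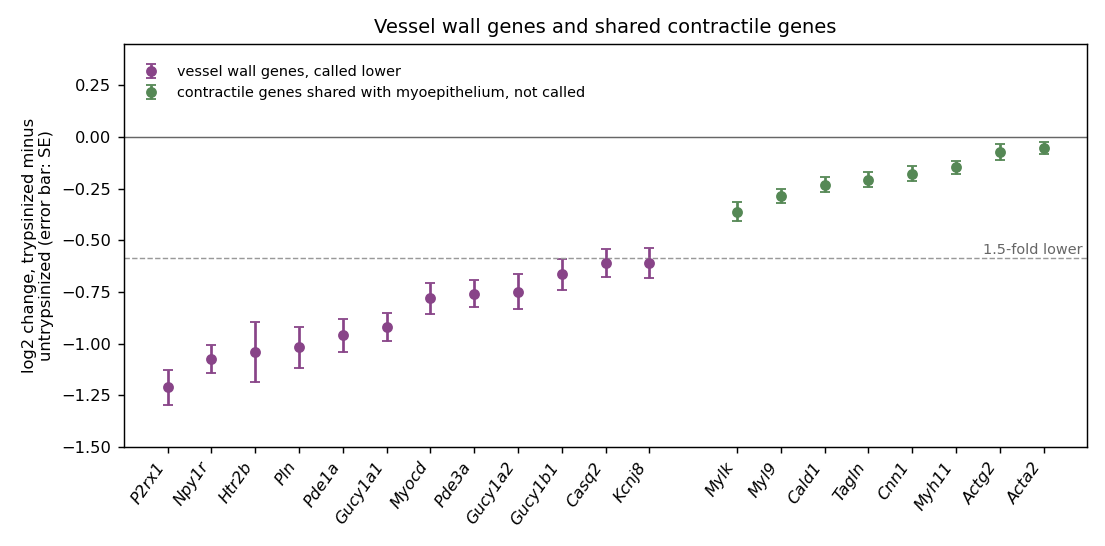
Log2 change (trypsinized minus untrypsinized, error bar SE, n = 3 arrays per group) of 12 vessel wall genes called lower and of 8 contractile genes shared with myoepithelium. The vessel wall genes were picked because they were called, which places them past the minimum fold (dashed line), at -1.21 (P2rx1) to -0.61 (Kcnj8). The shared genes lie at -0.36 (Mylk) to -0.05 (Acta2), and all but Actg2 and Acta2 are within the range of the whole pericyte and vascular smooth muscle list, -0.68 to -0.10.

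Arterial and lymphatic endothelial genes were among the calls. Hey2, a Notch target that marks arteries, stood at 9.46, 9.69 and 9.57 in untrypsinized replicates 1 to 3 and at 8.66, 8.86 and 8.73 in trypsinized replicates 1 to 3. Its groups did not overlap, and it fell by 0.82 (SE 0.08, adjusted p = 0.000538). Gja5, a gap junction protein of arteries, stood at 9.38, 9.68 and 9.55 in untrypsinized replicates 1 to 3 and at 8.68, 8.83 and 8.68 in trypsinized replicates 1 to 3, and fell by 0.81 (SE 0.09, adjusted p = 0.001). Sox17, a transcription factor of arterial endothelium, fell by 0.62 (SE 0.07, adjusted p = 0.00128). Other members of the Notch list did not share this size: Heyl and Hey1 were lower at the adjusted p alone, at -0.35 and -0.31, while Hes1 was higher at 0.48. Of 20 blood endothelial genes 5 were called lower, against 0.933% of all genes. Among them were Kdr, the main receptor for vascular endothelial growth factor, which fell by 0.62 (SE 0.09, adjusted p = 0.00322), and Aplnr, the apelin receptor, which fell by 0.69 (SE 0.08, adjusted p = 0.00107). At the adjusted p alone 19 of the 20 were lower, against 11.5% of all genes. The count of calls was 3 without untrypsinized replicate 3, 8 without untrypsinized replicate 1 and 12 with a common median. The call of Sox17 was lost without untrypsinized replicate 3 (-0.54) and without trypsinized replicate 1 (-0.58). The call of Kdr was lost without untrypsinized replicate 3 (-0.52).

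In the lymphatic list 4 of 11 members were called lower, against 0.933% of all genes. Klhl4, a kelch protein of lymphatic endothelium, stood at 9.51, 9.58 and 9.77 in untrypsinized replicates 1 to 3 and at 8.56, 8.71 and 8.53 in trypsinized replicates 1 to 3, and fell by 1.02 (SE 0.10, adjusted p = 0.000651). Mmrn1, a multimerin of lymphatics, fell by 0.66 (SE 0.16, adjusted p = 0.0228), Nrp2, a co-receptor for VEGF-C, fell by 0.61 (SE 0.12, adjusted p = 0.0091), and Fgl2, a fibrinogen-like protein, fell by 0.61 (SE 0.07, adjusted p = 0.00139). The list had 1 member called without untrypsinized replicate 3, and 2 without trypsinized replicate 2 or 3. Prox1, the factor that sets lymphatic identity, differed by -0.12 (adjusted p = 0.311), and Lyve1, a hyaluronan receptor shared with macrophages, by 0.21 (adjusted p = 0.645), or -0.05 without trypsinized replicate 1. Fgl2 is also made by immune cells and Nrp2 by neurons. The call of Mmrn1 was lost without untrypsinized replicate 2 (-0.67), without untrypsinized replicate 3 (-0.60), without trypsinized replicate 2 (-0.55) and without trypsinized replicate 3 (-0.64). The call of Nrp2 was lost without untrypsinized replicate 3 (-0.54), without trypsinized replicate 2 (-0.57) and without trypsinized replicate 3 (-0.58). The call of Fgl2 was lost without untrypsinized replicate 3 (-0.52).

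Several transcription factors of mesenchyme were called lower. The list of regulators of epithelial-mesenchymal transition had 4 of 12 members called lower and 0 higher (0.933% and 0.532% of all genes). Its median was -0.25. Prrx1, a homeobox factor of connective tissue, stood at 10.93, 11.08 and 11.17 in untrypsinized replicates 1 to 3 and at 10.41, 10.37 and 10.30 in trypsinized replicates 1 to 3, and fell by 0.70 (SE 0.07, adjusted p = 0.000911). Twist1, a basic helix-loop-helix factor, stood at 9.38, 9.05 and 9.23 in untrypsinized replicates 1 to 3 and at 8.57, 8.60 and 8.56 in trypsinized replicates 1 to 3, and fell by 0.65 (SE 0.08, adjusted p = 0.00126). Cdh2, the neural and mesenchymal cadherin, fell by 0.60 (SE 0.07, adjusted p = 0.0013). The fourth was Zeb2. Zeb1 differed by -0.40 (adjusted p = 0.0612). The call of Twist1 was lost without untrypsinized replicate 1 (-0.57). The call of Cdh2 was lost with a pseudocount of 16 (-0.58), without untrypsinized replicate 3 (-0.53), without trypsinized replicate 2 (-0.58) and without trypsinized replicate 3 (-0.58).

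Single genes of patterning and matrix families were called lower. Of 20 BMP and GDF ligands 1 was called, Bmp5, at 8.78, 8.94 and 9.04 in untrypsinized replicates 1 to 3 and at 7.70, 8.05 and 7.82 in trypsinized replicates 1 to 3. It fell by 1.06 (SE 0.11, adjusted p = 0.000721) and its groups did not overlap. With a common median 3 of these ligands were called. Of 38 Hox genes 2 were called lower (0.933% of all genes), the neighbours Hoxd8 and Hoxd9. Hoxd8 fell by 0.84 (SE 0.08, adjusted p = 0.000604) and Hoxd9 fell by 0.64 (SE 0.06, adjusted p = 0.000504). Timp4, an inhibitor of matrix metalloproteinases found in fat and vessels, stood at 9.71, 9.90 and 9.94 in untrypsinized replicates 1 to 3 and at 9.04, 9.01 and 9.00 in trypsinized replicates 1 to 3, and fell by 0.84 (SE 0.06, adjusted p = 0.000259). It was the only 1 of 5 measured inhibitors called, but 4 of the 5 were lower at the adjusted p alone and all 5 changes were below 0, at a median of -0.17. When arrays were left out the count at the adjusted p was 2 to 4, lowest without untrypsinized replicate 2. Of 44 collagen genes 0 were called, with 2 higher and 5 lower at the adjusted p alone (13.9% and 11.5% of all genes). Those counts were 0 and 10 without untrypsinized replicate 2, and 0 and 14 with a common median. Thbs4, a thrombospondin of tendon and vessel matrix, fell by 1.12 (SE 0.08, adjusted p = 0.000259), and Cytl1, a secreted factor of endothelial and cartilage cells, fell by 1.12 (SE 0.12, adjusted p = 0.000961). Vat1l, Mlip, Kcnab1 and Kcnj13 complete the 12 largest falls under the same exclusions as for the rises, which leave out small RNA and predicted genes. Mlip, a lamin-interacting protein of muscle, fell by 1.23 (SE 0.11, adjusted p = 0.000487), and the potassium channel genes Kcnj13 and Kcnab1 fell by 1.27 (SE 0.13, adjusted p = 0.000651) and by 1.18 (SE 0.10, adjusted p = 0.000377). Vat1l fell by 1.36 (SE 0.09, adjusted p = 0.000205).

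Skeletal muscle fibre genes called lower were 4 of 22, against 0.933% of all genes: Ckm, Myl1, Myh4 and Atp2a1. Myl1, a fast myosin light chain, stood at 10.25, 9.66 and 9.97 in untrypsinized replicates 1 to 3 and at 9.06, 8.91 and 8.97 in trypsinized replicates 1 to 3, and fell by 0.98 (SE 0.14, adjusted p = 0.00256). Atp2a1, the calcium pump of fast fibres, stood at 9.34, 8.71 and 8.96 in untrypsinized replicates 1 to 3 and at 8.52, 8.22 and 8.21 in trypsinized replicates 1 to 3, and fell by 0.69 (SE 0.15, adjusted p = 0.0137). Untrypsinized replicate 2 was the lowest untrypsinized array for Ckm, Myl1, Myh4 and Atp2a1. Without untrypsinized replicate 1 the list had 2 members called and without untrypsinized replicate 2 it had 5. Rescaled arrays gave 6 or 7. The call of Atp2a1 was lost without untrypsinized replicate 1 (-0.52) and without trypsinized replicate 3 (-0.63).

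Some promoters of genes called lower hold a CArG box, the motif bound by serum response factor, whose coactivator is Myocd. In RefSeq promoter windows of 300 bases (250 before to 50 after the gene start, GRCm38.p6), both strands searched, the CArG box stood in 6 of 140 called-lower genes with a window (4.29%), in 2 of 61 called-higher genes (3.28%) and in 254 of all 15562 (1.63%). Any part of Myocd or serum response factor in these changes was not tested. The 6 windows of the called-lower genes are shown with 15 bases on each side and the box in capitals.
Lmcd1, chr6:112273528-112273567, plus strand: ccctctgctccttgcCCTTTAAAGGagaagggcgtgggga
Filip1, chr9:79977973-79978012, minus strand: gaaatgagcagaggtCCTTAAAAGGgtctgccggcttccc
Myh4, chr11:67237693-67237732, plus strand: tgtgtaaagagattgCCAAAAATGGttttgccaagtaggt
Aspa, chr11:73324685-73324724, minus strand: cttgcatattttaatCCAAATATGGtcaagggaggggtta
Eml1, chr12:108370920-108370959, plus strand: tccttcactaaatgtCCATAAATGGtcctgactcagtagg
Fhl1, chrX:56779566-56779605, plus strand: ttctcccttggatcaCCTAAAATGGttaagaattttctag
Fhl1, a LIM protein of the actin cytoskeleton, fell by 0.77 (SE 0.06, adjusted p = 0.000379), Lmcd1, a LIM protein of muscle, fell by 0.64 (SE 0.09, adjusted p = 0.00231), Filip1, a filamin partner, fell by 0.64 (SE 0.07, adjusted p = 0.00105), and Myh4, a fast myosin heavy chain, fell by 0.62 (SE 0.12, adjusted p = 0.00846). Aspa, which breaks down acetylaspartate, fell by 0.88 (SE 0.08, adjusted p = 0.000538), and Eml1, a microtubule protein, fell by 0.60 (SE 0.04, adjusted p = 0.000259). Lmcd1, Filip1, Aspa and Eml1 were named because of this match. A match is a description of letters and not a binding site. A second motif, ACAAAG, searched on both strands, stood in 21.4% of the called-lower, 18.0% of the called-higher and 19.0% of all windows. The call of Myh4 was lost without untrypsinized replicate 1 (-0.50). The call of Eml1 was lost without untrypsinized replicate 3 (-0.57).

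Genes of 2 kinds of epithelial junction, desmosomes and tight junctions, were in large part higher at the adjusted p alone, under the minimum fold, while those of 2 other adhesion lists lay near the background. Of 12 adherens junction genes 3 were higher and 1 lower at the adjusted p alone, at a median of 0.04, and of 13 genes of hemidesmosomes and focal adhesion 4 were higher and 2 lower, at 0.05. None of either list was called, and the median of all genes was 0.04. Desmosomes rivet epithelial cells together. Of 10 measured desmosome genes 0 were called, but 6 were higher and 0 lower at the adjusted p alone, against 13.9% and 11.5% of all genes, at a median of 0.26. Dsp, the desmoplakin that ties desmosomes to keratin, stood at 11.33, 11.34 and 11.30 in untrypsinized replicates 1 to 3 and at 11.78, 11.73 and 11.74 in trypsinized replicates 1 to 3. Its groups did not overlap, and the change was 0.43 (SE 0.03, adjusted p = 0.000332). Plakophilins link desmosomal cadherins to desmoplakin, and Pkp3 and Pkp1 changed by 0.35 and 0.34. The cadherin Dsc2 changed by 0.27. Under 3 other scalings of arrays the median stayed between 0.12 and 0.26 and the count at the adjusted p was 3 to 6.

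Tight junctions seal the sheet of luminal cells. Of 16 genes 0 were called and 8 were higher at the adjusted p alone (13.9% of all genes), at a median of 0.19. With arrays set to a common median that count was 0, with 1 lower, and the median was 0.06. The list median exceeded that of all genes under every scaling tried by 0.15 or more. The claudins Cldn1 and Cldn4, which form the strands, changed by 0.28 and 0.21. Marveld2, the tricellulin of corners where cells meet, changed by 0.32, and Crb3, a polarity protein, by 0.24. Genes of trypsin's own class were split. Among 15 protease-activated receptors and epithelial serine proteases 0 were called, and 3 were higher and 3 lower at the adjusted p alone, while leaving out mock sorted replicate 1 or 2, or untrypsinized replicate 2, gave 1 call. The serine protease Prss22 changed by 0.55 and Prss23 by -0.42.

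Cytokine, stress and clock genes were called higher as single genes. Of 24 inflammatory cytokine genes 2 were called higher (0.532% of all genes). At the adjusted p alone 11 were higher and 2 lower (13.9% and 11.5% of all genes). The list median of 0.12 was -0.01 with a common median, so its sign depended on scaling. Without any 1 of the 6 arrays compared the count at the adjusted p was 5 to 8, lowest without untrypsinized replicate 2. Csf3, a granulocyte growth factor, was higher at 0.37 and Icam1, an adhesion molecule, lower at -0.21, both at the adjusted p alone. Osgin1, an oxidative stress growth inhibitor, stood at 10.89, 10.90 and 10.90 in untrypsinized replicates 1 to 3 and at 11.53, 11.53 and 11.59 in trypsinized replicates 1 to 3. Its groups did not overlap and it rose by 0.66 (SE 0.03, adjusted p = 0.000196), alone among 16 measured genes of oxidative stress. The call of Osgin1 was lost with a common median (0.52).

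The clock repressor Per2 stood at 10.71, 10.79 and 10.87 in untrypsinized replicates 1 to 3 and at 11.39, 11.37 and 11.43 in trypsinized replicates 1 to 3. It rose by 0.61 (SE 0.05, adjusted p = 0.000263). Of 15 clock genes 6 were higher and 1 lower at the adjusted p alone (13.9% and 11.5% of all genes). Among them were Nr1d1 at 0.39, Per1 at 0.34 and Cry1 at 0.33. With a common median 4 clock genes were higher and 3 lower, and the list median went from 0.18 to 0.04. With either quantile normalization 7 were higher and 1 lower. The time at which cells were taken is not in the labels, and its part in these values was not tested. In the list of ERK feedback genes and EGF ligands 0 of 18 were called. At the adjusted p alone 8 were higher and 2 lower, with the ligand Nrg1 at 0.55 and the phosphatase Dusp4 at 0.31. With a common median 4 were higher and 4 lower, and the list median went from 0.15 to 0.02. Without trypsinized replicate 2, 1 was called higher. The call of Per2 was lost with a common median (0.47) and without untrypsinized replicate 1 (0.57).

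Cell division and energy genes leaned lower, all under the minimum fold. Of all genes 11.5% were lower and 13.9% higher at the adjusted p alone. Of 17 mitosis genes 9 were lower and 0 higher at the adjusted p alone, at a median of -0.17, but 2 without untrypsinized replicate 3 or trypsinized replicate 1, 3 without untrypsinized replicate 1, 5 without trypsinized replicate 2 and 14 with a common median. Tpx2, a spindle assembly factor, changed by -0.28 and Bub1b, a spindle checkpoint kinase, by -0.27. Of 14 citric acid cycle genes 6 were lower at the adjusted p alone, but 0 without trypsinized replicate 3, 1 without trypsinized replicate 1 and 2 without any 1 untrypsinized array. That count was 3 without mock sorted replicate 3 or with either quantile normalization, and 12 with a common median. Tetraspanins, which organise proteins in membranes, had 10 of 19 lower and 1 higher, and 8 or 9 lower without any 1 array. Tspan12, a co-receptor of Frizzled signalling, changed by -0.43 and Tspan5 by -0.40.

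The 12 largest rises with groups that did not overlap leave out small RNA, predicted and olfactory or vomeronasal receptor genes. The T cell genes Cd8b1, Trav7d-4 and Lat were the largest of them, and Trav14-1 was among them too. These are given with the lymphocyte genes, as are Timd4 and Rgs1. The 12 also held genes of other kinds, beside Clec2e and Muc4. Larger rises than some of them among small RNA genes, such as that of Mir27a, are given with those genes. Aloxe3, a lipoxygenase of epidermis, stood at 8.76, 8.94 and 8.81 in untrypsinized replicates 1 to 3 and at 9.65, 9.63 and 9.67 in trypsinized replicates 1 to 3, and rose by 0.82 (SE 0.05, adjusted p = 0.000205). Kcnmb3, a subunit of calcium-activated potassium channels, rose by 0.78 (SE 0.15, adjusted p = 0.00943). Psg23, a pregnancy-specific glycoprotein, rose by 0.9966 (SE 0.17, adjusted p = 0.00496). Prl2b1, a prolactin relative, was also called higher. Its level in untrypsinized arrays, 6.07 to 6.61, was close to that of olfactory receptors, so no fold is given, and Psg23 and Prl2b1 belong to families of near-identical copies whose signal can mix.

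Noncoding RNA genes were called higher more often than protein-coding genes. Of 53 genes of small nucleolar RNAs (snoRNAs), which guide chemical changes of ribosomal RNA, 10 were called higher and 0 lower. Of 297 miRNA genes 15 were higher and 1 lower, and of 675 long noncoding RNA genes 15 were higher and 0 lower. Of 18555 protein-coding genes 58 were higher and 185 lower. The medians were 0.23, 0.17 and 0.15 for the 3 noncoding classes and 0.03 for protein-coding genes. With arrays set to a common median, 8, 10 and 8 of the noncoding genes were called higher, and 1, 3 and 1 were lower. With quantile normalization over all rows the miRNA median was -0.01. The miRNA and long noncoding genes were dimmer than protein-coding genes, so medians were also taken among genes of like mean level. At a level below 6 they were 0.08 for 75 miRNA, 0.0034 for 17 long noncoding and 0.07 for 627 protein-coding genes, and at 6 to 7 they were 0.11, 0.07 and 0.07. Those 2 bins hold 145 of the 297 miRNA genes, and in them the long noncoding median was not above the protein-coding one. At 7 to 8 the medians were 0.18, 0.12 and 0.08, at 8 to 9 0.20, 0.19 and 0.08, and at 9 to 10 0.27, 0.23 and 0.02. The snoRNA genes, which had 10 or more genes from a level of 8 up, were at 0.32 at 8 to 9, 0.20 at 9 to 10 and 0.26 at 10 to 11. Long noncoding calls were 12 without trypsinized replicate 1 or 3, 22 without untrypsinized replicate 2 and 20 without trypsinized replicate 2.

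Mature sequences show which miRNAs these genes hold. They are RefSeq entries (GRCm38.p6), 5′ to 3′, with the seed (bases 2 to 8) in capitals, the stretch that pairs with target messages. The first group is 3 neighbours on chromosome 8, all called, shown by the arm usually kept.
mmu-miR-23a-3p: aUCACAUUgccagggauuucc
mmu-miR-27a-3p: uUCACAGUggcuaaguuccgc
mmu-miR-24-3p: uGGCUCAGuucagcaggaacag
Members of the second group lie within 10 kb of each other on chromosome 14.
mmu-miR-18a-5p: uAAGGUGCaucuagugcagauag
mmu-miR-19a-3p: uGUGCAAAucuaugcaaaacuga
mmu-miR-20a-5p: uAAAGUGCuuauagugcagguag
mmu-miR-19b-3p: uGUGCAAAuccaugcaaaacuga
The third is the let-7 family with mmu-miR-98, from 2 loci, with mmu-miR-200b, a miRNA of epithelial cells.
mmu-let-7d-5p: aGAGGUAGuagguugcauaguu
mmu-let-7f-5p: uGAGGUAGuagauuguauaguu
mmu-miR-98-5p: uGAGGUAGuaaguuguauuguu
mmu-miR-200b-3p: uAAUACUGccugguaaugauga
The let-7 members share the seed GAGGUAG, and mmu-miR-19a-3p and mmu-miR-19b-3p share GUGCAAA. A whole-transcript array row does not tell the primary transcript, the hairpin and the mature RNA apart.

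The Mir23a group held the brightest of the miRNA genes called higher. Mir23a stood at 9.06, 9.64 and 9.57 in untrypsinized replicates 1 to 3 and at 10.73, 10.79 and 10.87 in trypsinized replicates 1 to 3, and rose by 1.38 (SE 0.14, adjusted p = 0.000734). Mir27a stood at 9.65, 10.21 and 9.99 in untrypsinized replicates 1 to 3 and at 11.32, 11.46 and 11.55 in trypsinized replicates 1 to 3, and rose by 1.49 (SE 0.13, adjusted p = 0.00039). Mir24-2 stood at 8.74, 8.99 and 9.00 in untrypsinized replicates 1 to 3 and at 10.0033, 10.01 and 10.10 in trypsinized replicates 1 to 3, and rose by 1.13 (SE 0.07, adjusted p = 0.000205). Untrypsinized replicate 1 was the lowest array for all 3, and the groups did not overlap. Each call held without any 1 array.

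In the Mir17 group 4 of 5 measured neighbours were called. Mir18 rose by 0.63 (SE 0.07, adjusted p = 0.000819) and Mir19a rose by 0.60 (SE 0.07, adjusted p = 0.00149). Mir17 was higher at the adjusted p alone, at 0.38. Mir20a and Mir19b-1 were the other calls. In untrypsinized arrays they lay below and at the olfactory receptor mean, at 5.99 and 6.49, and in trypsinized arrays at 6.74 and 7.62, so no fold is given. The call of Mir20a was lost with quantile normalization over all rows. Mir19b-2, another locus of mmu-miR-19b-3p, lay below that mean in both groups, and has no fold here either. The call of Mir18 was lost with quantile normalization over all rows (0.47), with a common median (0.50), with quantile normalization over the tested genes (0.53), without untrypsinized replicate 2 (0.58) and without trypsinized replicate 2 (0.57). The call of Mir19a was lost with quantile normalization over all rows (0.44), with a common median (0.46), with quantile normalization over the tested genes (0.49), with a pseudocount of 16 (0.56), without untrypsinized replicate 1 (0.57), without untrypsinized replicate 3 (0.58) and without trypsinized replicate 2 (0.54).

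Neighbours of other called miRNA genes were not all called. Mirlet7d rose by 0.94 (SE 0.08, adjusted p = 0.000392), while Mirlet7a-1 beside it was not called (adjusted p = 0.318). Mirlet7f-1, of the same locus, was called but lay below the olfactory receptor mean in untrypsinized arrays, at 5.97 against 6.67 in trypsinized arrays, and no fold is given. Its call was lost with quantile normalization over all rows or a common median. Mir98 rose by 0.94 (SE 0.10, adjusted p = 0.000807), and its neighbour Mirlet7f-2 was not called (adjusted p = 0.632). Mir200b stood at 7.01, 7.18 and 7.31 in untrypsinized replicates 1 to 3 and at 8.25, 8.22 and 8.25 in trypsinized replicates 1 to 3, and rose by 1.07 (SE 0.08, adjusted p = 0.000259), while Mir200a beside it was higher at the adjusted p alone, at 0.28. Mir26a-1 rose by 0.78 (SE 0.19, adjusted p = 0.0199), Mir325 rose by 0.66 (SE 0.14, adjusted p = 0.0133) and Mir677 rose by 0.62 (SE 0.06, adjusted p = 0.000604). Mir463, the only miRNA gene called lower, had mean levels of 3.84 and 3.13, far below the olfactory receptor mean, and no fold is given. The call of Mir26a-1 was lost with quantile normalization over all rows (0.63), without untrypsinized replicate 2 (0.75), without untrypsinized replicate 3 (0.71) and without trypsinized replicate 3 (0.60). The call of Mir325 was lost with quantile normalization over all rows (0.49), with a common median (0.53), with quantile normalization over the tested genes (0.58), without untrypsinized replicate 1 (0.56) and without trypsinized replicate 1 (0.54). The call of Mir677 was lost with quantile normalization over all rows (0.46), with a common median (0.48), with quantile normalization over the tested genes (0.51), with a pseudocount of 16 (0.58) and without untrypsinized replicate 1 (0.58).

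**Figure D3:**
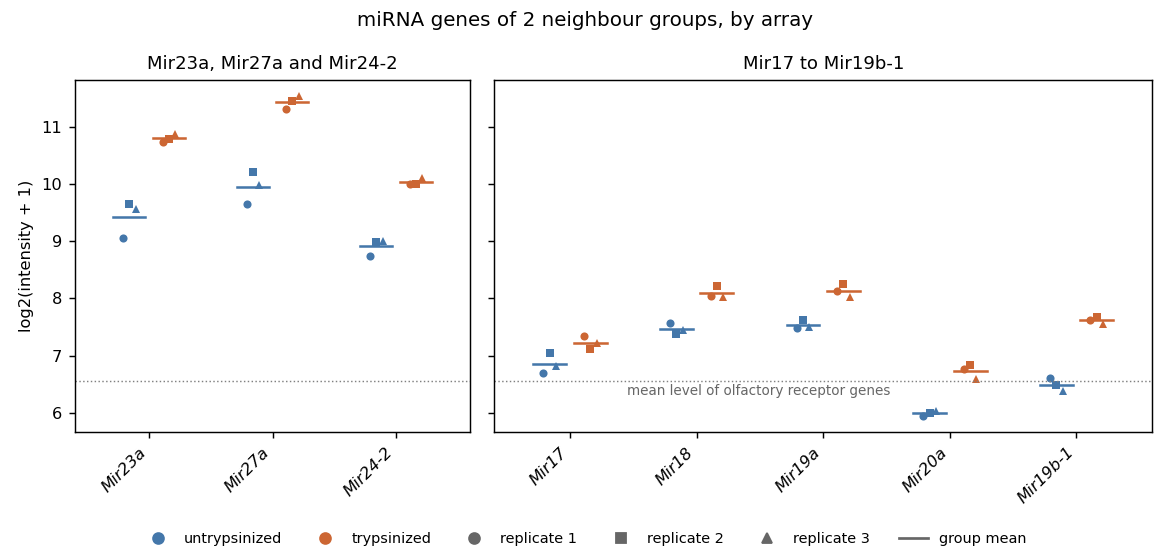
Level, as log2 of intensity plus 1, of miRNA genes of 2 neighbour groups in 3 untrypsinized (blue) and 3 trypsinized (orange) arrays, with group means as bars and the mean level of olfactory receptor genes over all arrays as a dotted line. All trypsinized arrays lie above all untrypsinized arrays in each gene shown, and Mir17 has the smallest change (0.38).

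Most snoRNAs are cut from introns of host genes, among them genes that make ribosomal proteins and translation factors. A measured host was found by RefSeq positions, without regard to strand, for 31 snoRNA genes, in 27 host genes. Where 2 genes spanned a snoRNA gene, the only measured one was taken, as with Mcmdc2 for Snord87. The snoRNA genes had a median change of 0.27 and their hosts one of -0.01, and in 29 of 31 pairs the snoRNA gene lay above its host. Host changes ran from -0.23 to 0.26, and 0 hosts were called higher. Some host rows were dim and may say little of the host. In untrypsinized arrays Rplp2 had a mean of 6.96, beside 13.09 for its Snora52, and Mcmdc2 had 7.18.

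The 6 called snoRNA genes with a measured host rose by 0.59 to 1.02, beside host changes of -0.01 to 0.06, which were all below 0 with arrays set to a common median. Snord37, within Eef2, stood at 8.44, 8.52 and 8.53 in untrypsinized replicates 1 to 3 and at 9.67, 9.49 and 9.40 in trypsinized replicates 1 to 3, and rose by 1.02 (SE 0.10, adjusted p = 0.000673). Snord14e, within Hspa8, stood at 9.92, 10.10 and 10.12 in untrypsinized replicates 1 to 3 and at 11.16, 10.94 and 10.90 in trypsinized replicates 1 to 3, and rose by 0.95 (SE 0.11, adjusted p = 0.0011). Snord53, within Wdr43, stood at 11.05, 11.69 and 11.02 in untrypsinized replicates 1 to 3 and at 12.29, 11.93 and 12.28 in trypsinized replicates 1 to 3, and rose by 0.91 (SE 0.21, adjusted p = 0.0171). The last has the widest spread of the 3. Snora75 in Ncl rose by 0.73 (SE 0.09, adjusted p = 0.00176), Snord16a in Rpl4 rose by 0.67 (SE 0.08, adjusted p = 0.00121) and Snora70 in Rpl10 rose by 0.59 (SE 0.06, adjusted p = 0.000715). Snord118, the U8 RNA that is needed to mature ribosomal RNA and has its own promoter, rose by 0.98 (SE 0.12, adjusted p = 0.00168). Among long noncoding RNAs Firre, a nuclear RNA from the X chromosome, rose by 0.70 (SE 0.10, adjusted p = 0.00271). The call of Snord53 was lost without untrypsinized replicate 1 (0.81), without untrypsinized replicate 3 (0.80), without trypsinized replicate 1 (0.85) and without trypsinized replicate 3 (0.85). The call of Snord16a was lost with a common median (0.54). The call of Snora70 was lost with quantile normalization over all rows (0.52), with a common median (0.45), with quantile normalization over the tested genes (0.57), with a pseudocount of 16 (0.57), without untrypsinized replicate 2 (0.54) and without trypsinized replicate 3 (0.55). The call of Firre was lost with a common median (0.57).

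**Figure D4:**
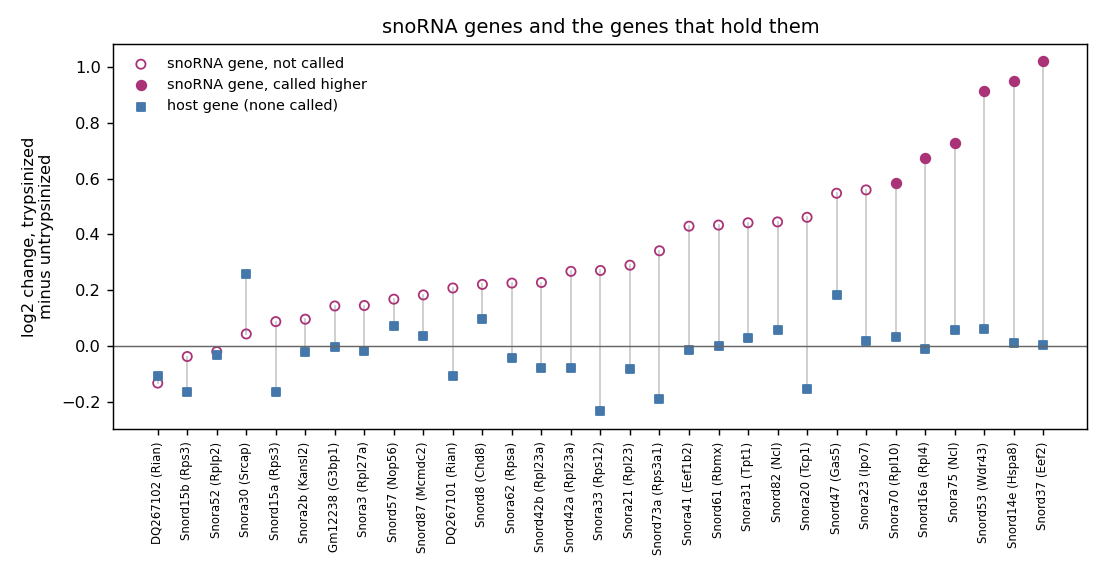
Log2 change (trypsinized minus untrypsinized) of 31 snoRNA genes (circles, filled where called higher) and of the gene that holds each (squares, named in brackets), ordered by the snoRNA change. The 6 filled circles lie at 0.59 to 1.02 and the squares of their hosts at -0.01 to 0.06.

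Lymphocyte genes are given apart, because trypsinized replicate 1 stood above the other arrays in them. The median level over 24 T cell genes was 8.07, 8.22 and 8.04 in untrypsinized replicates 1 to 3 and 9.99, 8.92 and 8.66 in trypsinized replicates 1 to 3. Over 19 B cell genes it was 8.82, 8.18 and 8.47 in untrypsinized replicates 1 to 3 and 10.18, 8.71 and 8.95 in trypsinized replicates 1 to 3. Over 12 immunoglobulin gene segments it was 8.21, 7.34 and 7.65 in untrypsinized replicates 1 to 3 and 10.13, 8.52 and 8.54 in trypsinized replicates 1 to 3. In each list trypsinized replicate 1 was more than 1 log2 unit above both other trypsinized arrays, and the summed intensity of the T cell list ran from 9370 to 10200 in untrypsinized and from 13100 to 31700 in trypsinized arrays. The other trypsinized arrays still lay above all untrypsinized arrays in T cell and immunoglobulin medians. In the B cell median trypsinized replicate 2 lay below untrypsinized replicate 1.

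With all arrays the list medians of change were 1.06, 0.73 and 1.30, and without trypsinized replicate 1 they were 0.54, 0.31 and 0.75. Calls in the T cell list were 2 of 24 with all arrays, against 0.532% of all genes called higher. They were 0 without trypsinized replicate 1 or any 1 untrypsinized array, and 1 without replicate 2 of either other group. Trav7d-4, a T cell receptor segment outside that list, kept its call and is given below. Leaving out mock sorted replicate 1 gave 11, and a common median 5. The mock sorted arrays, which lend their spread to the fit, were ordered by number as the trypsinized arrays were, with T cell medians of 9.86, 8.86 and 8.56 in replicates 1 to 3. B cell genes and immunoglobulin segments had 0 called, and without mock sorted replicate 1 the segments had 2. With the replicate number as a block over all 9 arrays, 12 of 24 T cell genes, 11 of 19 B cell genes and 7 of 12 segments were called higher. Of all 19938 genes 193 were called higher in that fit. The list counts therefore depend on the block. Cd3e, a chain of the T cell receptor complex, stood at 8.91, 9.45 and 9.06 in untrypsinized replicates 1 to 3 and at 11.45, 10.22 and 9.93 in trypsinized replicates 1 to 3 and changed by 1.39 (adjusted p = 0.0588), or by 0.93 without trypsinized replicate 1. Cd79b, a chain of the B cell receptor, stood at 10.03, 9.58 and 10.03 in untrypsinized replicates 1 to 3 and at 11.41, 10.12 and 10.62 in trypsinized replicates 1 to 3, where the groups lay close, and changed by 0.83 (adjusted p = 0.137). Both were named after their values were seen.

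Of the 106 genes called higher, 74 were also called without trypsinized replicate 1, and of the 186 called lower, 175. Cd8b1 went from 1.75 to 1.31 (adjusted p = 0.102) and Lat from 1.51 to 1.05 (adjusted p = 0.0826), and both lost their call. The T cell receptor segment Trav14-1 lost its call too (adjusted p = 0.0612). Trav7d-4, another such segment, kept its call (adjusted p = 0.0234), also without any other 1 array. It lay below the olfactory receptor mean in both groups, at 4.59 and 6.23, and Trav14-1 in untrypsinized arrays, at 5.88, so no fold is given. Other immune genes among the lost calls, picked for that loss, follow. Rgs1, a regulator of chemokine signals in lymphocytes, stood at 9.9995, 9.84 and 9.71 in untrypsinized replicates 1 to 3 and at 11.16, 10.67 and 10.43 in trypsinized replicates 1 to 3, and its change went from 0.90 to 0.70 (adjusted p = 0.0666). Ltb, lymphotoxin beta, went from 0.77 to 0.54. Ccr8, a chemokine receptor, went from 0.68 to 0.47, and Il10, a cytokine, from 0.61 to 0.48. Timd4, a receptor of macrophages, stood at 9.06, 8.51 and 9.17 in untrypsinized replicates 1 to 3 and at 10.93, 9.60 and 10.14 in trypsinized replicates 1 to 3, and went from 1.31 to 0.96 (adjusted p = 0.137). Genes of other kinds, among them Snord53, Mir325 and Rgs11, lost their call as well.

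The macrophage list had Timd4 as its only call. At the adjusted p alone 2 of its 21 genes were higher and 6 lower (13.9% and 11.5% of all genes). The lower count was 3 without untrypsinized replicate 2 or 3 or trypsinized replicate 1 or 2, and Timd4 kept its call without trypsinized replicate 2 but not without any other 1 of the 6 arrays compared. The list median was -0.06, or -0.19 with a common median, and that of the mast cell list was -0.11. Genes of antigen presentation by MHC class II had a median of 0.32, or 0.16 without trypsinized replicate 1, with 0 of 9 called. Nfatc2, a transcription factor of T cells and other cells chosen after its values were seen, stood at 9.65, 9.68 and 9.71 in untrypsinized replicates 1 to 3 and at 10.43, 10.31 and 10.46 in trypsinized replicates 1 to 3. Its 3 trypsinized arrays lay within 0.15 log2 units of each other, it rose by 0.72 (SE 0.05, adjusted p = 0.000205), and the change without trypsinized replicate 1 was 0.70. The call of Nfatc2 was lost with a common median (0.58).

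**Figure D5:**
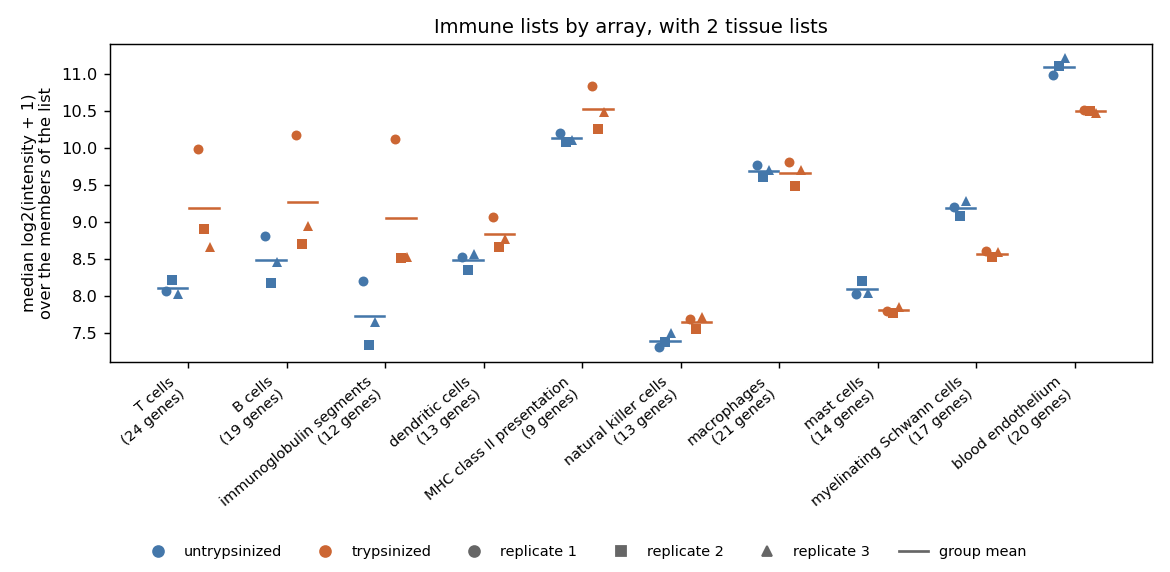
Median level (log2 of intensity plus 1) over the measured members of 8 immune lists and 2 tissue lists in each of the 3 untrypsinized (blue) and 3 trypsinized (orange) arrays, with the mean of the array medians as bars. Trypsinized replicate 1 (orange circle) stands above the other trypsinized arrays for T cells, B cells and immunoglobulin segments, and lies close to them for blood endothelium and the Schwann list.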

How the data were processed

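Total RNA of mammary cells was labelled with the Affymetrix whole-transcript kit and read on arrays, per the labels. The authors deposited linear array intensity values for 35512 rows and 9 arrays, with 3 arrays per group. How those values were normalized is not given in the sources used here, and the submitters' processing notes name limma alone. Median intensity per array was 345 to 408. With 3 arrays in a group, precision is limited by their number.

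Rows were named through the platform annotation and RefSeq: 21789 rows had 1 symbol, 1621 several and 12102 none, and the row with the highest mean stood for a gene, giving 19938 genes. Log2(intensity + 1) was fitted in limma 3.58.1 (R 4.3.3) with a mean for each of the 3 groups and no block, and p-values were adjusted by Benjamini-Hochberg. Calls needed an adjusted p of 0.05 and a fold of 1.5, as in the series' design text. The fit was tested on simulated data. Alternatives changed scaling, pseudocount, filter, row choice, block and arrays.

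Members and gene lists were chosen with earlier results of these data known. Named genes were the 12 largest called rises and falls with groups that did not overlap (leaving out small RNA, predicted, clone-named, olfactory and vomeronasal receptor genes), called list members, up to 4 members per list with the smallest p, bright markers and called miRNA genes. Genes outside that rule are marked as chosen after their values were seen. For the largest rises and falls the lack of overlap was set by the rule and adds no support.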

Additional observations from a re-analysis of the deposited data

Results flagged for a closer look

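Rows of the array with no gene name were not part of the comparisons of genes. Of 12102 such rows 1068 were called higher after trypsin and 27 lower by the same rule, so 8.82% were called higher, at a median change of 0.17. Rows with several gene names gave 41 called higher and 0 lower of 1621. The unnamed rows had a median level of 7.48, against 9.21 for rows with 1 name. What the unnamed rows measure is not given in the sources used here.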

How the results depend on the processing

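The main counts of 106 higher and 186 lower (36.3% of calls higher) became 57 and 279 with quantile normalization over all rows (17.0% higher), 55 and 376 with a common median (12.8%) and 80 and 227 with quantile normalization over the tested genes (26.1%). All 186 lower calls were also called under these 3 scalings, and 57, 49 and 80 of the higher calls. Without a minimum fold 2766 were higher and 2289 lower, 5055 in all, and with unadjusted p 176 were higher. Leaving out arrays gave 84 to 140 higher, 153 to 220 lower and 257 to 332 in all. Same-numbered untrypsinized and trypsinized arrays deviated together little (correlations of 0.11, 0.04 and -0.04), and the main fit did not pair samples by number. Between same-numbered untrypsinized and mock sorted arrays the correlations were 0.32, 0.18 and 0.06. Whether a number marks a shared preparation is not in the labels and was not tested. Same-numbered trypsinized and mock sorted arrays did deviate together (0.53, 0.29 and 0.29), and the fit without a block takes its spread from both. With the replicate block 193 were higher and 185 lower in 9 arrays, and 93 and 182 in the 6 arrays compared. Of 106 called genes named in the text, T cell genes among the largest rises aside, 66 kept their direction and call under every alternative run. Without each array 74 did. Changes of sign came in genes that were not called. Lyve1 ranged from -0.050 (without trypsinized replicate 1, also with mock sorted replicate 1 left out) to 0.35 when arrays were left out. Mirlet7f-2 ranged from -0.26 to 0.015, and was at 0.0049 without trypsinized replicate 1, alone or with mock sorted replicate 1. Mirlet7a-1 was at -0.022 with quantile normalization over all rows and -0.0006 with a common median. The cause was not tested. Genes near the olfactory receptor level have little signal over background.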
